A study of Mus musculus with 23 samples.

Results

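Open chromatin was described at the loci of 10 genes of glycolysis and the hypoxia response: Slc2a1, Hk1, Hk2, Pfkfb3, Pfkp, Pgam1, Pkm, Ldha, Hif1a and Slc16a3. A peak was assigned to a gene when its summit lay in the gene body or within 20 kb of it on GRCm38. This gave 72 of the 49124 regions of open chromatin in the series, 46 of them inside gene bodies, and 28 of the 72 had a peak in every one of the 23 libraries. The deposited lists placed 1545 of 1054137 peaks at these loci. A position near a gene does not show that a region controls that gene.

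The series holds ATAC-seq peak lists, which mark DNA open to a transposase, from sorted striatal microglia. The mice were male and 8 to 10 weeks old. The 4 groups were offspring of dams with maternal immune activation (MIA) after lipopolysaccharide (MIA_LPS, n = 5) or after saline (MIA_SAL, n = 6), and control offspring (CON) after lipopolysaccharide (CON_LPS, n = 7) or after saline (CON_SAL, n = 5). LPS, a bacterial cell wall component, was injected into the peritoneum at 4500 EU (endotoxin units) for each gram the mouse weighed, and cells were collected 18 hours after LPS or saline. All 4 groups share the papain digestion at 37 °C and the gate for live, CD11b+, CD45-low, P2RY12+ cells. The labels name no agent for the maternal activation. How many animals stand behind a library is not stated in them, so the p-values refer to the spread among libraries, which may be technical. Each library also carries an identity number whose meaning the labels do not give. The 23 libraries hold 14 such numbers, and in 4 cases a pair of libraries of 1 group has the same one.

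The lists held 33949 to 68312 peaks. Each was shortened to its best 33949 peaks by the −log10 p of the peak caller, and a rank score of 100 was given to the best peak of a list and 0 to a region without a peak. Of 10 microglial marker genes, 6 to 10 had a peak within 1 kb of a gene end in each library. P2ry12, the gene of the sorted surface receptor, had one in 2 of 5 MIA_LPS, 5 of 6 MIA_SAL, 3 of 7 CON_LPS and 3 of 5 CON_SAL libraries. The 3 monocyte markers had none in any library. Of the 5 neutrophil markers, S100a9, Ly6g and Mpo had none, Cxcr2 had one in 1 CON_LPS library, and S100a8 had one in 4 of 5 MIA_LPS, 0 of 6 MIA_SAL, 6 of 7 CON_LPS and 0 of 5 CON_SAL libraries. Among the other lists, the lymphocyte gene Cd79a had one in 2 of 5 MIA_LPS, 1 of 6 MIA_SAL, 5 of 7 CON_LPS and 0 of 5 CON_SAL libraries. The oligodendrocyte gene Mog had one in 1 of 5 MIA_LPS, 3 of 6 MIA_SAL, 0 of 7 CON_LPS and 3 of 5 CON_SAL libraries. Mbp, of the same lineage, had one in all libraries, as did the endothelial gene Kdr. At the neutrophil list as a whole, 0 to 1 genes had a peak in MIA_LPS, 0 in MIA_SAL, 0 to 2 in CON_LPS and 0 in CON_SAL libraries.

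Glycolysis breaks glucose down to pyruvate in the cytosol, and lactate dehydrogenase turns pyruvate into lactate when oxygen is short or when cells switch to fast glucose use. Macrophages and microglia exposed to LPS are known for such a switch. HIF-1, a dimer of the oxygen-labile HIF1A and the stable ARNT, binds the core letters ACGTG or GCGTG of hypoxia response elements, and many glycolytic genes are among its known targets.

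The stretch of 250 bases before annotated starts is shown for 6 of the genes, as examples of the member starts, because the regions with the main LPS differences described below belong to these genes. The sequences are from RefSeq on GRCm38.p6, in the direction of the gene, and capitals mark every ACGTG or GCGTG on either strand. Overlapping matches are merged in the capitals. The lines give Slc2a1 (chr4:119108495-119108744, plus strand), the outer and the inner start of Hk1 (chr10:62379909-62380158 and chr10:62340422-62340671, minus), Hk2 (chr6:82774455-82774704, minus), the distal and the proximal start of Pfkfb3 (chr2:11553930-11554179 and chr2:11502091-11502340, minus), the upstream start of Ldha (chr7:46845554-46845803, plus) and Slc16a3 (chr11:120948817-120949066, plus).
Slc2a1: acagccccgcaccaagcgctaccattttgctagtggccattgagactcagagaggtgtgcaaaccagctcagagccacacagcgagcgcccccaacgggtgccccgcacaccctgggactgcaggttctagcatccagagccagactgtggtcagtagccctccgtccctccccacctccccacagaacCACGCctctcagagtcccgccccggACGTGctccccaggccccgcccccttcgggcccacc
Hk1 outer start: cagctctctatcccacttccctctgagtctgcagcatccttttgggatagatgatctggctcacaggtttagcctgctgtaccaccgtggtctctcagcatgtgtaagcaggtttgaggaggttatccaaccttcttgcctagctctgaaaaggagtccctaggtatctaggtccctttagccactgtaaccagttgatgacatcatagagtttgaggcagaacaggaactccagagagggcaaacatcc
Hk1 inner start: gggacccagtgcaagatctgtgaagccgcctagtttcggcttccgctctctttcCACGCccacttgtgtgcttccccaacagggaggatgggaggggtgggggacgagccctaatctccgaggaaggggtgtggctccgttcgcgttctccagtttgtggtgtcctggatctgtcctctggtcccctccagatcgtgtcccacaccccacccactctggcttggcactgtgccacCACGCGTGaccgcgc
Hk2: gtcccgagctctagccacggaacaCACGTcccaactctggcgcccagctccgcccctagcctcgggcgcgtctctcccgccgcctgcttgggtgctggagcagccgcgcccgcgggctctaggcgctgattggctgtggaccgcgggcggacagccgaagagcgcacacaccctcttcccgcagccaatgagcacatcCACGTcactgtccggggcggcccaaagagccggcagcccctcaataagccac
Pfkfb3 distal start: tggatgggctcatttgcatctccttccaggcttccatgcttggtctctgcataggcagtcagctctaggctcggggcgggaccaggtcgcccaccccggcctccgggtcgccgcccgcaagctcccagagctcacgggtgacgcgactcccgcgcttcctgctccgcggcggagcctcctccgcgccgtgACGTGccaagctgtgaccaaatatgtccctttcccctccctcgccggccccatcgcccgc
Pfkfb3 proximal start: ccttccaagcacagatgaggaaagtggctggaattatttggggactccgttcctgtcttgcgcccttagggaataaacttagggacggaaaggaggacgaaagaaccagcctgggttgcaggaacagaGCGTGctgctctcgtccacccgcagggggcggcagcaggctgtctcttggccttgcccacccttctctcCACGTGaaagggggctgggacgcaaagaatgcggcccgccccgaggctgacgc
Ldha: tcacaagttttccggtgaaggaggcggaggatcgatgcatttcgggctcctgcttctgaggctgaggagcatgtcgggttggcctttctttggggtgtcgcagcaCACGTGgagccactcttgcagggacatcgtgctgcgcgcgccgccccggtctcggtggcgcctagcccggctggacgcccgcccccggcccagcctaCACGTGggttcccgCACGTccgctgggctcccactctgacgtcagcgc
Slc16a3: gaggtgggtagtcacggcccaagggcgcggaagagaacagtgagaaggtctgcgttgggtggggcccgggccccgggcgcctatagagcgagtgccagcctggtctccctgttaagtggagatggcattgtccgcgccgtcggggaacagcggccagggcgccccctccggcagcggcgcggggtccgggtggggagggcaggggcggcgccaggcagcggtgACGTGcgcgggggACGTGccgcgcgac

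The 10 genes have 14 annotated starts in the RefSeq promoter table, and 12 of these windows (85.7%) held ACGTG or GCGTG, against 44.0% of the 21263 windows of the same length before protein-coding genes. The outer Hk1 window and the upstream Pkm window held none, and the upstream Ldha window held 5 ACGTG matches, the largest number among the 14. Both runs hold the letters CG, and the windows compared were not matched for base composition. A match is a run of letters and not a measured binding site. The inner start of Hk1, with 3 matches of GCGTG, lay under a peak in 23 of 23 libraries, and the outer start, with no match and 1 CpG, in 0 of 23 (0 of 5 MIA_LPS, 0 of 6 MIA_SAL, 0 of 7 CON_LPS and 0 of 5 CON_SAL libraries). Both starts of Pfkfb3 lay under a peak in all 23 libraries. The upstream Pkm start, without a match, also lay under a peak in all 23 libraries. The downstream starts of Ldha and Pkm, with 1 match each, were covered in 2 and 4 libraries. The single start of Slc16a3, with 2 matches, was covered in 21.

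**Figure D1:**
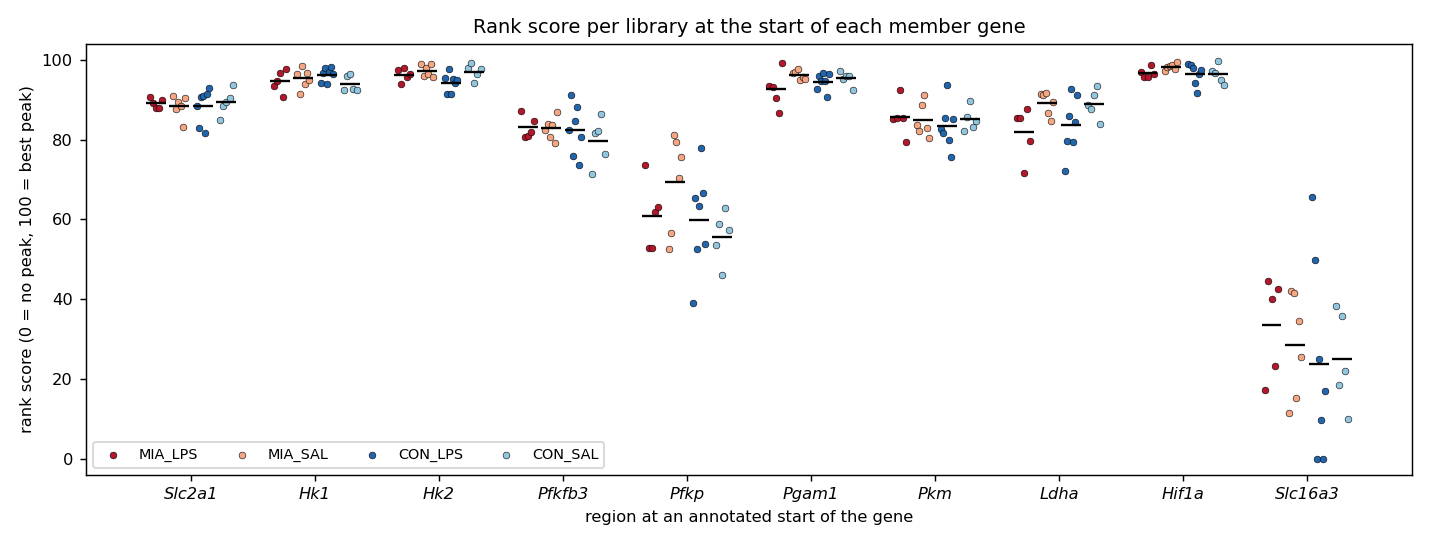
Rank score of each library at the region over an annotated start of each gene, with the mean of each group as a line and the groups in the order MIA_LPS, MIA_SAL, CON_LPS and CON_SAL. Hk1, Hk2, Pgam1 and Hif1a sit near the top of the scale in all groups, while Slc16a3 is low and spread between 0 and 65.5.

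At their starts, Slc2a1, Hk2 and Hif1a were open at similar ranks with and without LPS. The region over the Slc2a1 start scored 81.8 to 92.97 in LPS libraries and 83.2 to 93.7 in saline libraries. At the start of Hk2 the scores were 91.4 to 98.1 in LPS libraries and 94.2 to 99.2 in saline libraries. The start of Hif1a scored 91.6 to 99.0 in LPS libraries and 93.7 to 99.8 in saline libraries. All 3 pairs of ranges overlapped, and the LPS minus saline differences of −0.10 ± 1.36 for Slc2a1, −1.89 ± 0.82 for Hk2 and −0.79 ± 0.84 for Hif1a (SE) did not pass limma (adjusted p = 0.971, 0.110 and 0.549). The Slc16a3 start was the least open of the 10, at 0 to 65.5 in LPS libraries and 10.0 to 42.04 in saline libraries.

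Ldha, which encodes the muscle-type subunit of lactate dehydrogenase, was the one gene of the 10 with a rank call for LPS at the region over a start in the promoter table, and a call close to the start of Slc16a3 is described further on. The region 14 bp before its upstream start (chr7:46845540-46846040) scored 85.4, 85.4, 71.6, 87.7 and 79.8 in MIA_LPS libraries, against 84.7, 90.4 and 91.7 (lowest, median and highest) in MIA_SAL libraries. In CON_LPS libraries the lowest score was 72.2, a median of 84.5 and a highest of 92.6, and the CON_SAL libraries scored 88.7, 87.7, 91.3, 93.5 and 83.9. The groups overlapped, and the score fell by 6.32 ± 2.15 points with LPS (SE, limma, adjusted p = 0.0382; by rank of fold enrichment −7.84 ± 2.33, adjusted p = 0.0231). The call was lost on leaving out any one of 12 libraries: MIA_LPS 3 or 5, MIA_SAL 1, 2, 3 or 6, CON_LPS 1, 2 or 5, or CON_SAL 1, 3 or 4 (adjusted p of up to 0.0792).

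Away from the starts, LPS libraries gained peaks within Slc2a1, Hk2 and Pfkfb3, and lost a smaller number within Pfkfb3. Of the 24 member regions in which a presence test could reach p = 0.01, 7 had a peak in more LPS than saline libraries (29.2%) and 2 in fewer (8.33%), by an exact conditional test stratified by offspring group with adjusted p under 0.05. Over all 17547 regions tested the shares called were 15.3% and 8.39%. By rank score, 12 of 72 member regions were higher with LPS (16.7%) and 4 lower (5.56%). Over all 49123 regions the shares were 10.8% and 9.77% (limma, adjusted p under 0.05). By rank of fold enrichment, 9 of 72 were higher (12.5%) and 6 lower (8.33%), against 9.15% and 7.15% of all regions, so nearer to those shares. The median difference in rank score was −0.38 over the 72 regions and −0.60 over all regions. Of the 7 gained regions 4 lie in Pfkfb3, and neighbouring regions of 1 locus are not independent. The 10 genes and the further gene lists were chosen with earlier results of these data known. The shares called, here and below, are therefore no independent test of these genes. In bulk cells, a change in the share of cells with an open site and a change in openness per cell cannot be told apart. The S100a8, Cd79a and Mog peaks named above also stood in unequal numbers of LPS and saline libraries, and their part in these results was not tested. Of 9 other settings, some with too few libraries for a test, the presence calls were lost under 2 at Slc2a1, 5 at Hk2, 6 near Pgam1, and 3 to 7 at each of the Pfkfb3 regions.

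**Figure D2:**
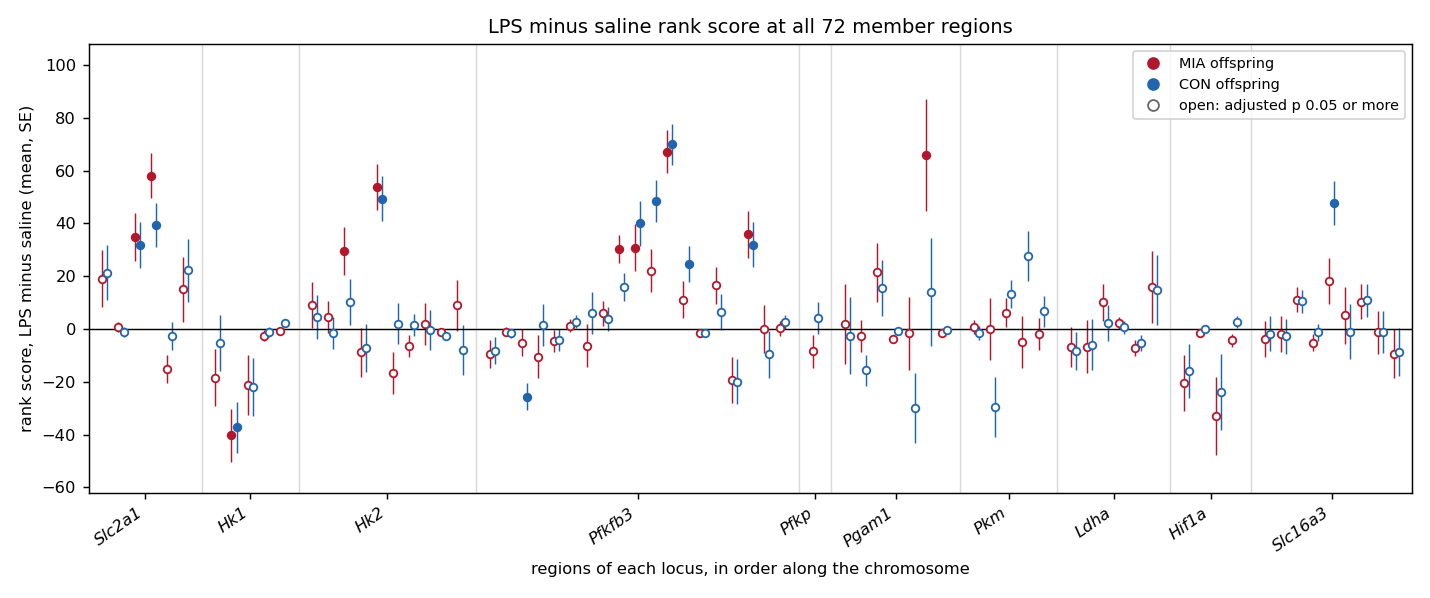
Difference in rank score, LPS minus saline, with its SE from limma at each of the 72 regions, in MIA offspring (red) and CON offspring (blue), and filled symbols where the adjusted p is under 0.05. The largest differences lie in Slc2a1, Hk2, Pfkfb3 and Slc16a3, with 1 region of Hk1 in the other direction and 1 wide and uncertain value near Pgam1.

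Slc2a1 (chr4:119108745-119137330) encodes GLUT1, the glucose transporter that imports glucose for glycolysis, and its intragenic region 17447 bp past the start separated the treatments without overlap. This region (chr4:119125942-119126442) had a peak in 5 of 5 MIA_LPS, 0 of 6 MIA_SAL, 7 of 7 CON_LPS and 0 of 5 CON_SAL libraries (adjusted p = 0.000175). Its rank scores were 77.6, 33.9, 75.8, 63.1 and 40.3 in MIA_LPS libraries, and lowest 15.3, median 35.7 and highest 60.0 in CON_LPS libraries, against 0 in all saline libraries. The score rose by 48.8 ± 6.02 points with LPS (SE, limma, adjusted p = 1.46e-06). Within MIA offspring alone the test gave adjusted p = 0.0140 for presence, and within CON offspring alone 0.0102, calls lost under 8 and 7 of 9 other settings (adjusted p of up to 0.119 and 0.129 where a test was possible).

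A neighbouring Slc2a1 region 524 bp closer to the start (chr4:119125418-119125918) was open in most libraries and higher with LPS. It scored 77.6, 65.1, 75.8, 63.1 and 56.8 in MIA_LPS libraries, and lowest 0, median 40.4 and highest 55.6 in MIA_SAL libraries. Among CON_LPS libraries the lowest score was 42.5, a median of 54.7 and a highest of 61.2, and the CON_SAL libraries 17.3, 0, 22.1, 35.8 and 35.6. Every MIA_LPS library was above every MIA_SAL library and every CON_LPS library above every CON_SAL library, and the difference was 33.4 ± 6.26 points (adjusted p = 0.000322). In 3 MIA_LPS and 2 CON_LPS libraries 1 wide peak covered both regions, so there the 2 scores are the same value. With all deposited peaks in place of lists of equal length, the presence difference of the region at 17447 bp was 63.3 points in place of 100 (adjusted p = 0.0236), and with a summit required inside the region 55.7 points (adjusted p = 0.0284; up to 0.0535, with lists of 16974 peaks, over the alternatives that could test it).

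**Figure D3:**
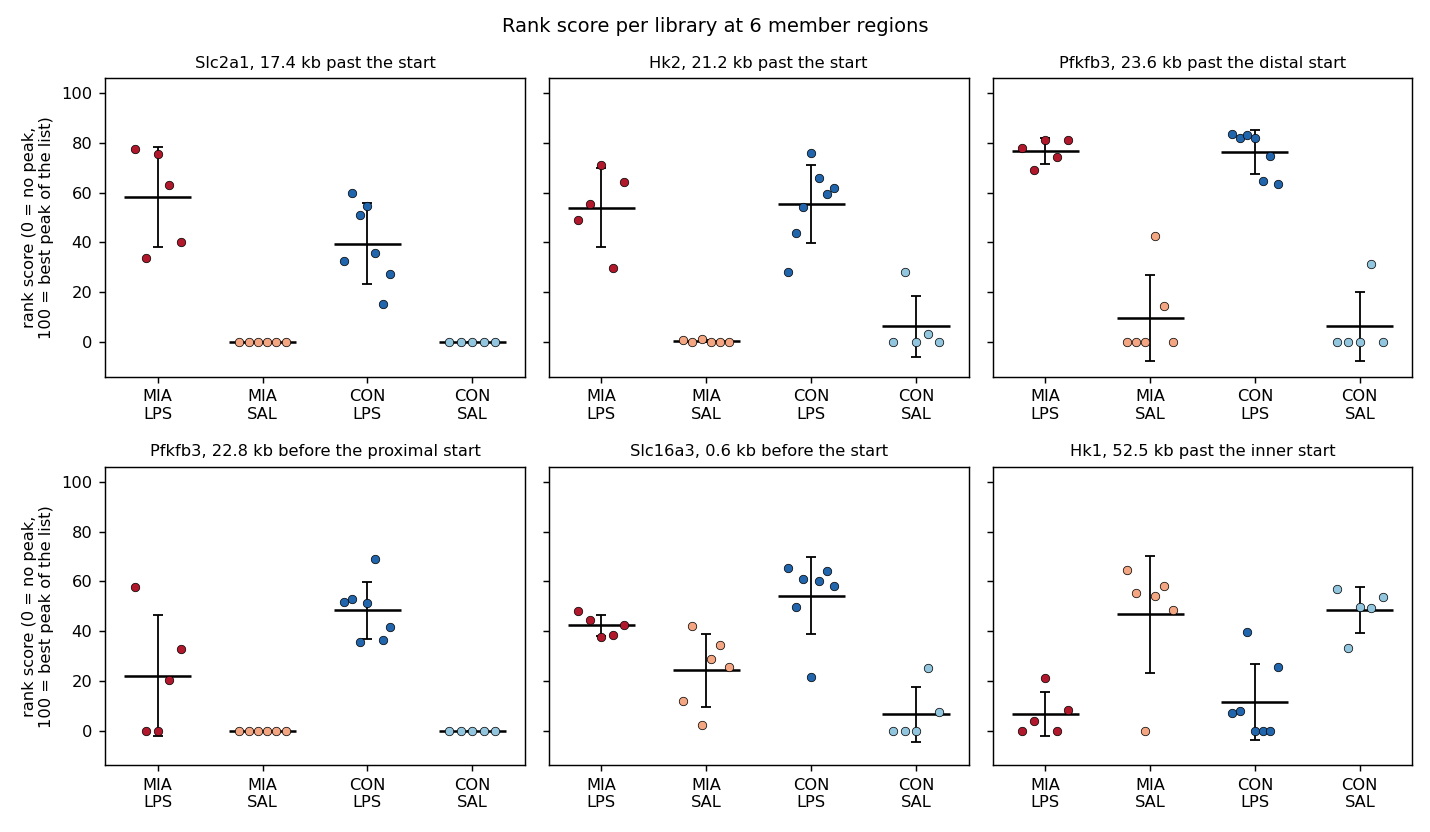
Rank score of each library at 6 regions of Slc2a1, Hk2, Pfkfb3, Slc16a3 and Hk1, with group means as lines and SD as bars, and 0 for a library without a peak. The LPS libraries lie above all saline libraries of the same offspring group at the Slc2a1 region and the Pfkfb3 region 23646 bp past the distal start, and most LPS libraries lie below most saline libraries at the Hk1 region.

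Hk2 (chr6:82725025-82774454) and Hk1 (chr10:62268855-62379920) encode hexokinases, which phosphorylate glucose and trap it in the cell. By rank with LPS, 2 of 10 Hk2 regions rose and 1 of 5 Hk1 regions fell, against 10.8% and 9.77% of all regions. The Hk2 region 21241 bp past the start (chr6:82752963-82753463) had a peak in 5 of 5 MIA_LPS, 2 of 6 MIA_SAL, 7 of 7 CON_LPS and 2 of 5 CON_SAL libraries (adjusted p = 0.0144). It scored 48.9, 55.4, 71.2, 29.9 and 64.5 in MIA_LPS libraries and at most 1.14 in MIA_SAL libraries. Scores in CON_LPS libraries had a minimum of 28.0, a median of 59.6 and a highest of 75.9, and the CON_SAL libraries scored 0, 28.1, 0, 3.24 and 0. The 2 treatments thus met only between the lowest CON_LPS library and 1 CON_SAL library. The gain was 51.5 ± 6.06 points (SE, adjusted p = 7.28e-07). With all deposited peaks the presence difference was 28.3 points and no exact test could reach p = 0.01, while the rank difference was 46.6 points (limma, adjusted p = 2.18e-05).

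The further Hk2 region 33956 bp past the start (chr6:82740248-82740748) scored 13.6, 47.0, 58.8, 21.8 and 55.0 in MIA_LPS libraries, and lowest 0, median 3.42 and highest 31.4 in MIA_SAL libraries. In CON_LPS libraries the lowest score was 10.3, the median 26.9 and the highest 41.4, and the CON_SAL libraries scored 21.7, 7.78, 0, 24.7 and 25.2. These ranges overlapped in both offspring groups. The difference of 19.9 ± 6.32 points passed the test (adjusted p = 0.0262), but not without MIA_LPS 3 or 5 or CON_SAL 3 (adjusted p of up to 0.0537) and not by rank of fold enrichment (adjusted p = 0.105).

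At Hk1 the change with LPS was a loss in the gene body, 52522 bp past the inner start (chr10:62287649-62288149). That region scored 0, 3.79, 21.1, 0 and 8.14 in MIA_LPS libraries, and lowest 0, median 54.8 and highest 64.5 in MIA_SAL libraries. CON_LPS libraries had a lowest score of 0, a median of 7.08 and a highest of 39.5, and the CON_SAL libraries scored 57.0, 33.2, 49.9, 49.2 and 53.8. All but 1 of the saline libraries lay above all MIA_LPS libraries, the exception being MIA_SAL 3 without a peak. The score fell by 38.7 ± 6.98 points (SE, adjusted p = 0.000214). Presence did not pass (adjusted p = 0.351), since 7 of 12 LPS libraries, 3 MIA_LPS and 4 CON_LPS, had a peak. The start region of Hk1, 137 bp past the inner start, lies outside the rule for named regions and was picked after its values were seen. It scored 90.8 to 98.1 in LPS libraries and 91.5 to 98.4 in saline libraries.

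Pfkfb3 (chr2:11471430-11554071) had the most regions, 19, all inside the gene. It encodes the bifunctional enzyme that makes fructose 2,6-bisphosphate, the strongest allosteric activator of phosphofructokinase, and is a known target of HIF-1. By rank, 6 of its 19 regions rose with LPS and 2 fell, against 10.8% and 9.77% of all regions. By presence, 4 of 8 testable regions were gained and 2 lost, against 15.3% and 8.39% of all regions tested. The gains lay between the distal and the proximal start, and both presence losses lay past the proximal start.

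**Figure D4:**
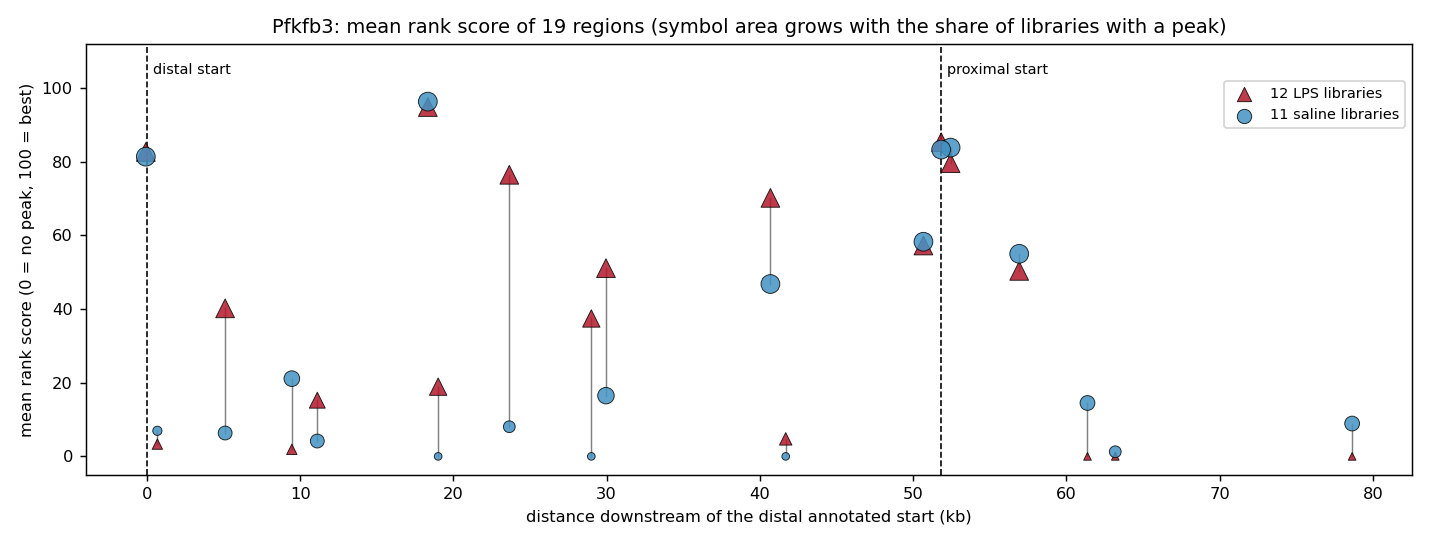
Mean rank score of the 19 Pfkfb3 regions in the 12 LPS libraries (triangles) and the 11 saline libraries (circles) by distance in kb downstream of the distal start, with a line joining the 2 means of a region. LPS means stand above saline means at most regions between the 2 starts, while regions at the starts and the best-ranked region hold nearly the same score.

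The Pfkfb3 region 23646 bp past the distal start (chr2:11530033-11530533) showed the largest difference in rank score of the 72. It had a peak in 5 of 5 MIA_LPS, 2 of 6 MIA_SAL, 7 of 7 CON_LPS and 1 of 5 CON_SAL libraries (adjusted p = 0.00471). The scores were 77.9, 69.0, 81.4, 74.4 and 81.1 in MIA_LPS libraries, and lowest 0, median 0 and highest 42.8 in MIA_SAL libraries. In CON_LPS libraries the lowest score was 63.5, a median of 82.2 and a highest of 83.7, and the CON_SAL libraries 0, 0, 0, 31.3 and 0. No LPS library overlapped with a saline library. The score rose by 68.6 ± 5.62 points (SE, limma, adjusted p = 2.55e-09), by 67.2 ± 8.07 in MIA offspring and by 70.0 ± 7.81 in CON offspring. By rank of the authors' fold enrichment the difference was 61.2 ± 6.58 (adjusted p = 5.36e-07), and the authors' fold at the peak was 5.35 to 13.9 in LPS libraries. In libraries of fewer than 20000 sorted cells the rank difference was 69.3 points, and in those of 20000 or more 68.3 points. With all deposited peaks the presence difference was 28.3 points, too few for a test, and the rank difference 60.5 points (adjusted p = 2.23e-07).

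The next Pfkfb3 regions downstream form a pair 956 bp apart. The one 22842 bp before the proximal start (chr2:11524682-11525182) had a peak in 3 of 5 MIA_LPS, 0 of 6 MIA_SAL, 7 of 7 CON_LPS and 0 of 5 CON_SAL libraries (adjusted p = 0.00156). It scored 57.6, 0, 0, 20.3 and 32.8 in MIA_LPS libraries, and lowest 35.8, median 51.3 and highest 68.9 in CON_LPS libraries, against 0 in every saline library. In the shortened lists, a peak here was thus seen after LPS alone, in every CON_LPS library and in part of the MIA_LPS libraries. The score rose by 48.4 ± 8.03 points in CON offspring (adjusted p = 0.000212), and in MIA offspring the difference of 22.1 ± 8.30 did not pass (adjusted p = 0.0956).

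Its partner, 21886 bp before the proximal start (chr2:11523726-11524226), scored 55.9, 47.1, 51.3, 43.5 and 66.6 in MIA_LPS libraries, and lowest 4.16, median 21.5 and highest 41.9 in MIA_SAL libraries. Among CON_LPS libraries the lowest score was 26.2, a median of 49.9 and a highest of 70.9, and the CON_SAL libraries scored 0, 0, 0, 22.1 and 26.7. LPS libraries stood above saline libraries in MIA offspring without overlap, and in CON offspring except for 1 CON_LPS library just below 1 CON_SAL library. The difference was 35.5 ± 6.12 points (adjusted p = 0.000130), and by rank of fold enrichment it did not pass (adjusted p = 0.0505).

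A further 3 gains at Pfkfb3 were smaller. The region 19003 bp past the distal start (chr2:11534676-11535176) had a peak in 4 of 5 MIA_LPS, 0 of 6 MIA_SAL, 6 of 7 CON_LPS and 0 of 5 CON_SAL libraries (adjusted p = 0.00191). It reached no more than 28.3 in MIA_LPS and 52.05 in CON_LPS libraries. This weak region lies 674 bp from the best-ranked region of the locus (chr2:11535350-11535850), chosen after its values were seen, which scored 88.4 to 99.4 in LPS libraries and 94.0 to 98.8 in saline libraries. The region 5102 bp past the distal start (chr2:11548577-11549077) scored 10.5, 61.4, 29.3, 59.6 and 46.2 in MIA_LPS libraries, and lowest 0, median 3.24 and highest 18.9 in MIA_SAL libraries. Scores in CON_LPS libraries had a minimum of 15.8, a median of 39.6 and a highest of 55.8, and the CON_SAL libraries 0, 19.1, 0, 17.6 and 0. All LPS libraries but 1 MIA_LPS and 1 CON_LPS library were above every saline library, and the score rose by 34.0 ± 6.15 points (adjusted p = 0.000222). Its presence call (adjusted p = 0.0270) was lost without any one of all 5 MIA_LPS, all 7 CON_LPS, MIA_SAL 3, 4 or 5, or CON_SAL 1, 3 or 5 (adjusted p of up to 0.0540).

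The region 11155 bp before the proximal start (chr2:11512995-11513495) had a peak in all 23 libraries and changed in rank only. The scores were 60.7, 82.3, 70.5, 71.8 and 74.3 in MIA_LPS libraries, and lowest 22.3, median 44.2 and highest 48.3 in MIA_SAL libraries. CON_LPS libraries had a lowest score of 57.0, a median of 69.3 and a highest of 78.2, and the CON_SAL libraries scored 57.5, 39.0, 60.5, 54.6 and 53.6. The MIA groups did not overlap and the CON groups did, where 1 CON_LPS library lay below 2 CON_SAL libraries. Over both, the score rose by 23.1 ± 3.73 points (adjusted p = 5.77e-05).

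The losses at Pfkfb3 concerned weak peaks. The region 9535 bp past the proximal start (chr2:11492305-11492805) had a peak in 0 of 5 MIA_LPS, 2 of 6 MIA_SAL, 0 of 7 CON_LPS and 4 of 5 CON_SAL libraries (adjusted p = 0.0184), with scores of 31.8, 35.5, 0, 26.6 and 34.4 in CON_SAL libraries. The region 26805 bp past it (chr2:11475035-11475535) had a peak in 0 of 5 MIA_LPS, 4 of 6 MIA_SAL, 0 of 7 CON_LPS and 2 of 5 CON_SAL libraries (adjusted p = 0.0495). In the shortened lists, no LPS library had a peak in either. The first call was lost under 7 of 9 other settings, with −35.0 points when all deposited peaks were used (adjusted p = 0.328, and up to 0.552 over the settings). The second call was lost without any one of all 5 MIA_LPS, MIA_SAL 1, 2, 5 or 6, CON_LPS 1, 4, 5 or 6, or CON_SAL 1 or 5 (adjusted p of up to 0.101). By rank alone, the region 9455 bp past the distal start (chr2:11544224-11544724) fell by 19.6 ± 6.09 points (adjusted p = 0.0226), with a peak in 0 of 5 MIA_LPS, 3 of 6 MIA_SAL, 2 of 7 CON_LPS and 4 of 5 CON_SAL libraries. Pfkp (chr13:6579874-6649060), the platelet-type phosphofructokinase, had a single region, at its start, with scores of 39.2 to 77.9 in LPS libraries and 45.97 to 81.1 in saline libraries (difference −2.15 ± 4.38, adjusted p = 0.776).

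Slc16a3 (chr11:120948484-120959000) encodes MCT4, the transporter that exports lactate, and is a known HIF-1 target. Its region 560 bp before the start of the promoter table, which is 23 bp inside the annotated gene (chr11:120948257-120948757) scored 48.2, 44.5, 37.6, 38.6 and 42.6 in MIA_LPS libraries, and lowest 2.35, median 27.1 and highest 42.04 in MIA_SAL libraries. In CON_LPS libraries the lowest score was 21.4, a median of 60.1 and a highest of 65.5, and the CON_SAL libraries scored 0, 0, 0, 25.2 and 7.33. The MIA groups overlapped, and in CON offspring all but CON_LPS 4 lay above every CON_SAL library. The score rose by 32.97 ± 6.02 points (adjusted p = 0.000245). Adjacent on the start side, 508 bp away, lies the region over the start itself, and 1 peak covered both in 2 MIA_LPS, 3 MIA_SAL, 2 CON_LPS and 0 CON_SAL libraries. A region 10083 bp before the start (chr11:120938734-120939234), open in all 23 libraries, scored 69.0, 79.1, 89.1, 77.5 and 81.0 in MIA_LPS libraries, and lowest 45.3, median 72.03 and highest 74.6 in MIA_SAL libraries. Among CON_LPS libraries the lowest score was 72.2, a median of 77.6 and a highest of 84.2, and the CON_SAL libraries scored 69.5, 66.0, 77.5, 67.3 and 56.8. It overlapped in both offspring groups and rose by 10.8 ± 3.22 points (adjusted p = 0.0179).

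Of the enzymes of the lower pathway other than Ldha, Pgam1 and Pkm had no call at their starts. Pgam1 (chr19:41911871-41918665) encodes phosphoglycerate mutase, and its start scored 86.7 to 99.2 in LPS libraries and 92.4 to 97.8 in saline libraries (difference −2.21 ± 1.08, adjusted p = 0.157). Its presence call lies 20936 bp past the start inside another gene, Exosc1 (chr19:41932557-41933057), with a peak in 5 of 5 MIA_LPS, 0 of 6 MIA_SAL, 5 of 7 CON_LPS and 1 of 5 CON_SAL libraries (adjusted p = 0.00787). It adjoins a region 589 bp away that was the best-ranked of the locus, with scores of 96.1 to 99.4 in LPS libraries and 98.7 to 99.95 in saline libraries. A single wide peak covered both in 3 MIA_LPS, 0 MIA_SAL, 2 CON_LPS and 1 CON_SAL libraries, and with a summit required inside the region the call was lost.

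Pkm (chr9:59656576-59679372) encodes pyruvate kinase, which makes pyruvate and ATP. Its start region scored 75.6 to 93.8 in LPS libraries and 80.4 to 91.2 in saline libraries (difference −0.44 ± 1.86, adjusted p = 0.900). A region 749 bp past its 3′ end, inside Gramd2, was open in all libraries and did not pass either (difference 2.38 ± 4.19, adjusted p = 0.737). The intragenic region 2661 bp past the downstream start (chr9:59659638-59660138) had a peak in 4 of 5 MIA_LPS, 5 of 6 MIA_SAL, 7 of 7 CON_LPS and 0 of 5 CON_SAL libraries. No CON_SAL library had a peak there, while both saline and LPS libraries of MIA offspring did. The presence test passed in CON offspring (adjusted p = 0.0102), though not under 7 of 9 other settings (adjusted p of up to 0.0946 where a test was possible), and not over both offspring groups (adjusted p = 0.0656). Hif1a (chr12:73901324-73947554) had 4 regions, of which 3 were open in all libraries and none passed a test for LPS over both offspring groups. The nearest to a call, 704 bp past its start, was chosen after its values were seen and had mean scores of 55.9 in LPS libraries and 83.0 in saline libraries (difference −28.4 ± 10.2, adjusted p = 0.0509).

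The start regions of Hk1, Hif1a and Slc16a3 and the best-ranked Pfkfb3 and Pgam1 regions belong to the 46 regions outside the naming rule. By rank of −log10 p, these 46 gave no call for LPS over both offspring groups. Their differences ran from −28.4 to 20.2 points, with a lowest adjusted p of 0.0509, and 18 of them were open in all libraries. The rule names regions for being called by that rank, so the lack of calls is no separate result. By rank of fold enrichment, a Slc2a1 region among the 46 was called lower with LPS.

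Counted over whole loci, Slc2a1 had more peaks and Hk1 and Slc16a3 fewer after LPS. Slc2a1 had 5, 5, 4, 5 and 6 peaks in MIA_LPS libraries, against 4, 4 and 5 (lowest, median and highest) in MIA_SAL libraries. It had 5, 5 and 6 in CON_LPS libraries, against 3, 3, 4, 5 and 4 in CON_SAL libraries. The groups touched at 4 and 5 peaks, and the number rose by 0.32 ± 0.07 on the log2 scale (SE, limma on peak number plus 1, adjusted p = 0.00394). Hk1 averaged 3.2 ± 1.3 peaks in MIA_LPS and 4.67 ± 1.37 in MIA_SAL libraries, and 3.57 ± 0.79 in CON_LPS and 5.2 ± 0.84 in CON_SAL libraries (SD). Its number fell by 0.45 ± 0.14 on the log2 scale (adjusted p = 0.0399), a call lost without any one of MIA_LPS 1, 2 or 4, MIA_SAL 1, 2, 4, 5 or 6, CON_LPS 4 or 5, or CON_SAL 1, 2, 3 or 4 (adjusted p of up to 0.0863), or with the replicate block. Slc16a3 averaged 6.2 ± 0.84 peaks in MIA_LPS and 7.5 ± 1.52 in MIA_SAL libraries, and 5.71 ± 0.49 in CON_LPS and 7.4 ± 0.89 in CON_SAL libraries (SD). The number fell by 0.27 ± 0.08 on the log2 scale (adjusted p = 0.0191), and the call was lost with flanks of 10 or 50 kb. The other 7 loci did not pass, Hk2 and Pfkfb3 at 0.19 ± 0.06 and 0.26 ± 0.09 (adjusted p = 0.0576 and 0.0671). Of 16696 genes tested, 5.85% were called higher and 4.9% lower. With all deposited peaks, 0 of the 10 passed limma.

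**Figure D5:**
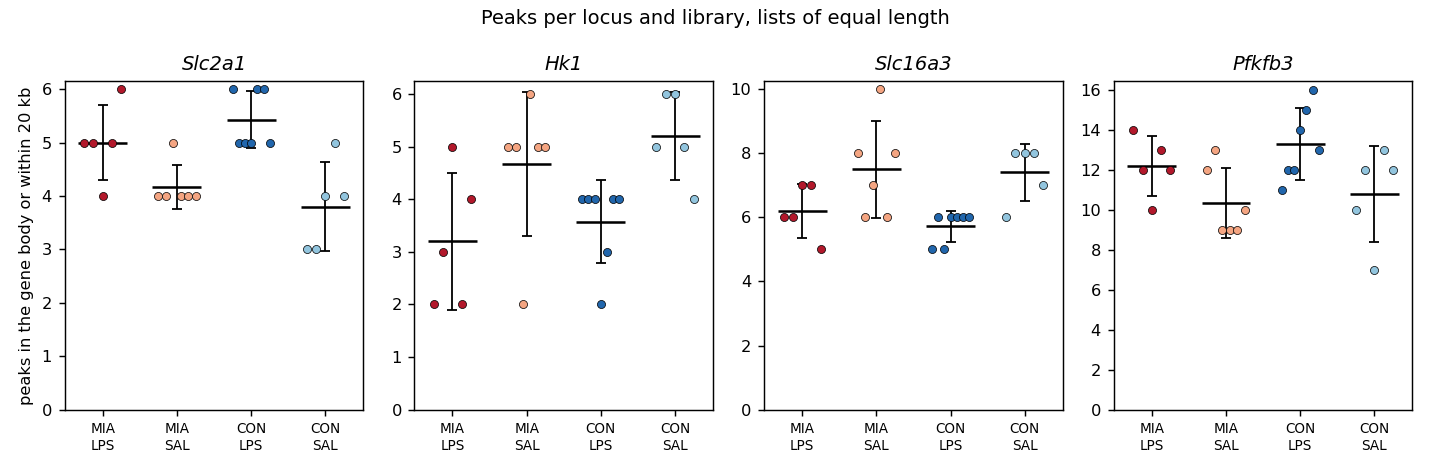
Number of peaks in the gene body or within 20 kb per library from lists of equal length, for Slc2a1, Hk1, Slc16a3 and Pfkfb3, with group means as lines and SD as bars. LPS groups stand above saline groups at Slc2a1 and below them at Hk1 and Slc16a3, and the Pfkfb3 groups overlap with no call.

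The series concerns prenatal immune stress and the later reactivity of microglia, so the LPS response was set side by side in MIA and CON offspring. In MIA offspring, 2 of 11 testable member regions were gained by presence (18.2%, against 13.0% of all tested regions, and 15.4% in either direction), and in CON offspring 3 of 7 (42.9%, against 9.92%, and 12.4% in either direction). None was lost, against 2.48% of all tested regions in MIA and 2.52% in CON offspring. By rank score, 9 of 72 member regions rose (12.5%) and 1 fell (1.39%) in MIA offspring, against 6.23% and 3.78% of all regions. In CON offspring 9 rose (12.5%) and 2 fell (2.78%), against 5.59% and 4.44%. By rank of fold enrichment, 4 rose (5.56%) and 2 fell (2.78%) in MIA offspring, against 4.73% and 2.4%. In CON offspring 4 rose (5.56%) and 1 fell (1.39%) by that rank, against 4.2% and 2.89%. The difference of the LPS response between MIA and CON passed limma at 0 of the 72 regions and 0 of 49123 in the genome (0.0%). At unadjusted p under 0.05 it reached 5 of 72 and 2214 of 49123 in the genome, and by rank of fold enrichment 3 of 72 and 2091 in the genome.

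The unadjusted differences were not in 1 direction. The response in MIA minus that in CON was −26.2 ± 11.6 points at the Pfkfb3 region 22842 bp before the proximal start (SE, 95% interval −50.0 to −2.45). It was −29.7 ± 12.1 at the Slc16a3 region 560 bp before the start (−54.6 to −4.91). At the Pkm region 2661 bp past the downstream start it was −32.5 ± 13.8 (−60.9 to −4.05). A Hif1a flank region gave −7.05 (−13.8 to −0.354). None of these 4 passed the adjustment (adjusted p = 0.972 for each). The Pfkfb3 region 9535 bp past the proximal start gave 20.5 ± 7.24 (5.54 to 35.4, adjusted p = 0.972), where MIA_SAL libraries averaged 5.19 and CON_SAL libraries 25.7, and no LPS library had a peak. At the leading regions the intervals were wide: −26.0 to 20.3 for Pfkfb3 at 23646 bp, −20.7 to 29.3 for Hk2 at 21241 bp and −6.16 to 43.5 for Slc2a1 at 17447 bp.

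Between MIA and CON libraries under the same treatment, no member region passed. By presence, 0 of 4 testable regions were called after LPS and 0 of 8 after saline, and 0 of 18 over both treatments. At unadjusted p under 0.05 there were 0 after LPS and 1 after saline, against 130 of 4224 and 41 of 4574 in the genome. The exact test called 0.0% of all regions in each of these comparisons. By rank, limma called 0 of 72 after LPS, with 5 at unadjusted p under 0.05, and 0 of 72 after saline, likewise with 5. In the genome it called 0.0224% of regions after LPS and 0.0% after saline. At unadjusted p under 0.05 it reached 2764 of 49123 regions in the genome after LPS and 2569 after saline. The lowest adjusted p of a member was 0.570 after LPS and 0.499 after saline. That lowest value after LPS belonged to the Pfkfb3 region 22842 bp before the proximal start, at −26.2 points in MIA_LPS minus CON_LPS (95% interval −42.8 to −9.71). By rank of fold enrichment, 0 of 72 were called in either treatment.

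The rest of the pathway was described from lists of 25 further glycolysis genes and 20 further hypoxia genes, with 241 regions. Of the 74 regions in which presence could be tested, 13 were gained after LPS (17.6%) and 2 lost (2.7%), against 15.3% and 8.39% in the genome. The 13 gains fell on 9 genes. By rank, 26 of the 241 rose (10.8%) and 14 fell (5.81%), against 10.8% and 9.77% of all regions. Ddit4, a stress- and hypoxia-induced inhibitor of mTORC1, had 4 of the gains, all outside the gene. The nearest of these, 6984 bp before the start, had a peak in 2 of 5 MIA_LPS, 0 of 6 MIA_SAL, 6 of 7 CON_LPS and 0 of 5 CON_SAL libraries (adjusted p = 0.0112), and the one 15672 bp before it had a peak in 4 of 5 MIA_LPS, 0 of 6 MIA_SAL, 6 of 7 CON_LPS and 0 of 5 CON_SAL libraries (adjusted p = 0.00191).

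Bnip3l, a mitophagy receptor induced by hypoxia, had 2 gains in its gene body, the first with a peak in 4 of 5 MIA_LPS, 0 of 6 MIA_SAL, 5 of 7 CON_LPS and 0 of 5 CON_SAL libraries (adjusted p = 0.00471). Arnt, the partner of HIF1A, gained a region 25188 bp past its start, with a peak in 3 of 5 MIA_LPS, 0 of 6 MIA_SAL, 5 of 7 CON_LPS and 0 of 5 CON_SAL libraries (adjusted p = 0.0131). Pfkl, the liver-type phosphofructokinase, gained a region 5755 bp before its start, with a peak in 4 of 5 MIA_LPS, 0 of 6 MIA_SAL, 4 of 7 CON_LPS and 0 of 5 CON_SAL libraries (adjusted p = 0.0119). Eno1, an enolase, gained one 2882 bp past its start, with a peak in 5 of 5 MIA_LPS, 1 of 6 MIA_SAL, 7 of 7 CON_LPS and 3 of 5 CON_SAL libraries (adjusted p = 0.0180). These regions had a peak in more LPS than saline libraries of both offspring groups. Pfkfb4, Eno2 and the lactate transporter gene Slc16a7 had 1 gain each, and that of Vhl lay inside Irak2, 17.9 kb outside Vhl. The 2 losses were near Gapdh, inside Iffo1, with a peak in 0 of 5 MIA_LPS, 6 of 6 MIA_SAL, 0 of 7 CON_LPS and 3 of 5 CON_SAL libraries (adjusted p = 0.00191), and 14044 bp before the start of P4ha1, a collagen prolyl hydroxylase, with a peak in 0 of 5 MIA_LPS, 3 of 6 MIA_SAL, 0 of 7 CON_LPS and 4 of 5 CON_SAL libraries (adjusted p = 0.0102).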

How the data were processed

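ATAC-seq peak lists of 23 libraries were used; labels gave groups and replicate numbers. The submitters' processing notes name mm10 and GRCm38, with MACS2 as peak caller, Bowtie2, cutadapt, SAMtools, Picard and DiffBind as further tools, and no versions or settings. The deposited columns were read from their values as fold enrichment (a ratio), −log10 p and −log10 q. No read counts were used, so depth per library is unknown. The number of peaks moves with depth, which the shortened lists address in part. The lowest deposited −log10 q was 1.301.

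Lists were shortened to 33949 peaks by −log10 p. Windows of 501 bp around summits, best rank first, gave 74287 windows, of which 49124 with a peak in at least 3 libraries were kept. A library had a peak where a peak covered 50% of the region or lay 50% inside it. Gene positions, starts and promoter sequences were RefSeq's for GRCm38.p6. Presence was tested with two-sided exact tests, where margins allowed p of 0.01 or less. Rank scores were tested with limma 3.58.1 (group means, trend) in R 4.3.3 on all regions but 1 that scored 100 in every library, with Benjamini-Hochberg adjustment and a call under 0.05. Peak numbers were tested as log2 of the number plus 1. Steps were tested on simulated data.

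Regions named with values were those within 1 kb of a gene end with a peak in at least 20 libraries (the best per end), those called by presence, and up to 3 per gene called by rank only. Of the other pathway genes, those with a presence call were named, at most 12 regions with values. Replicate numbers were not used to pair libraries in the main tests, and correlations of same-numbered libraries ran from −0.18 to 0.18 over 20 pairs. The members and lists were chosen with earlier results of these data known. The labels give each library an identity number of unstated meaning. Some libraries share one, within and across groups, so they may not be independent, and the number was tried as a random block.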

Additional observations from a re-analysis of the deposited data

Results flagged for a closer look

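Of 131 sets of 5 to 7 library values, 20 held a library whose gap to the nearest other library was large against the range of its group. A set in which all the other libraries share the same value is flagged however small the gap. This was so for peak numbers at Pfkp and for some rank scores with many libraries lacking a peak. The usual chance rate of about 1 in 20 therefore does not apply, and the number of flags cannot show an excess. The regions are named by gene and distance as above.

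Among rank scores, MIA_SAL 3 was lowest at the Hk1 region 52522 bp past the inner start, at 0 against 48.6 to 64.5 in the other MIA_SAL libraries. The same library was lowest at the Pfkfb3 region 11155 bp before the proximal start, at 22.3 against 42.6 to 48.3. MIA_SAL 4 was lowest at the Slc16a3 region 10083 bp before the start, at 45.3 against 71.1 to 74.6, and highest at the Pfkfb3 region 23646 bp past the distal start, at 42.8 against 0 to 14.5. At that Pfkfb3 region CON_SAL 4 scored 31.3 and the other CON_SAL libraries 0. CON_SAL 4 also scored 99.95 at the Pgam1 region within Exosc1, against 0 in the other CON_SAL libraries; 1 wide peak there covers the neighbouring region too.

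At the Pfkfb3 region 9535 bp past the proximal start, MIA_SAL 2 was highest at 25.0, against 0 to 6.14, and CON_SAL 3 lowest at 0, against 26.6 to 35.5. CON_SAL 1 was highest at the Pfkfb3 region 26805 bp past that start, at 34.4 against 0 to 6.83. CON_SAL 2 was highest at the Hk2 region 21241 bp past the start, at 28.1 against 0 to 3.24. CON_LPS 4 was highest at the Pfkfb3 region 9455 bp past the distal start, at 21.3 against 0 to 1.65, and lowest at the Slc16a3 region 560 bp before the start, at 21.4 against 49.9 to 65.5.

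Among peak numbers per locus, MIA_SAL 3 had 5 peaks at Slc2a1 against 4 in the other MIA_SAL libraries, and 2 at Hk1 against 5 to 6. At Pfkp, MIA_LPS 3, CON_LPS 3 and CON_SAL 3 had 2 peaks each against 1 in the others of their group. CON_LPS 3 had 8 peaks at Pgam1 against 4 to 5. At Hif1a, MIA_LPS 1 had 7 peaks against 3 to 4, and MIA_SAL 2 had 3 against 4.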

How the results depend on the processing

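Of 194 values of single regions and loci, 54 passed a test and 0 of these changed sign under the alternatives run. Of those that did not pass, 72 changed sign under at least 1. A difference that fell to 0 under a setting did not count as a change of sign. The alternatives reuse the libraries that gave the calls, so a stable sign is no separate support for them. Over leaving out each library in turn, the member regions called for LPS numbered 7 to 10 by presence and 14 to 19 by rank over both offspring groups, 3 to 4 and 11 to 13 in CON offspring, and 2 to 3 and 7 to 10 in MIA offspring. The loci called numbered 2 to 5, with 5 without MIA_LPS 3, and MIA against CON after saline gave 0 to 1 by rank, with 1 without CON_SAL 3. Lists of 16974 peaks gave 5 presence and 6 rank calls over both offspring groups, 1 and 4 in CON, and 4 by rank in MIA offspring. With −log10 q of at least 5 there were 5 presence calls over both, and by rank 4 in CON and 6 in MIA offspring. Ranking by fold gave 1 presence call each in CON and MIA offspring, and 4 and 6 rank calls. All deposited peaks gave 1 presence call in CON, 1 in MIA offspring and 0 loci. In libraries of fewer than 20000 sorted cells there were 2 presence calls over both, and 6 and 3 rank calls in CON and MIA offspring; with 20000 or more, 6 and 4. Without identity numbers 1 to 3, presence gave 6 calls in CON offspring. Without the filter on the attainable p, presence gave 0 in CON and 0 in MIA offspring, and limma on presence gave 8 and 6. A locus of 10 kb on each side gave 1 presence call in MIA offspring, and a summit inside the region 0. The causes were not tested.

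The replicate block gave 20 rank calls over both offspring groups against 16 without it, 11 in CON, 9 in MIA offspring and 2 loci. The identity number as a random block gave 18, 12 and 10. Of the 20 same-numbered pairs, 6 correlated above 0.1, among them every pair of replicate 3 (0.123 to 0.185). Without values for pairs of different numbers beside them, these correlations cannot decide whether the numbers pair libraries. Presence within a class of sorted cells could not be tested in 1 offspring group, nor were other settings with no testable region. A region without a peak may be open below the caller's threshold, the read depth is unknown, and groups of 5 to 7 libraries leave wide intervals.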
